A study of Mus musculus with 6 samples.

Results

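The 6 STS26T xenograft tumours of this series fell on either side of 100 FPKM for IL6, the gene of interleukin 6, and 3 of the 6 lay above it. FPKM is the number of fragments per kilobase of transcript, scaled to the library. The IL6-high class holds IgG control 1, IgG control 3 and anti-ENG 3, and the IL6-low class holds IgG control 2, anti-ENG 1 and anti-ENG 2, so both treatment arms occur in both classes. The classes were chosen by the measured IL6 values of these same tumours. Genes that follow IL6 are therefore selected by the split, and every difference between the classes is given as a description with no test. The values nearest the limit were 137 FPKM in IgG control 3 and 35.3 FPKM in IgG control 2.

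STS26T is a cell line from a human malignant peripheral nerve sheath tumour, a sarcoma of the nerve sheath. Its cells were placed under the skin of athymic nude mice, which lack a thymus and mature T cells but keep their myeloid cells, and every tumour here comes from that 1 line. Once tumours could be felt, mice of the anti-ENG arm received TRC105, which binds human endoglin (ENG), together with M1043, which binds the mouse protein, at 10 mg/kg 2 times a week by the intraperitoneal route for 3 weeks. Mice of the IgG control arm received IgG at that dose on the same schedule. IgG control 2 and 3 carry the same code number, and so do anti-ENG 1 and 2, and nothing in the labels tells whether each pair grew in 1 animal. The first of these pairs holds 1 tumour of each class, and the second holds a pair of IL6-low tumours.

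Interleukin 6 is a secreted cytokine that signals through its receptor IL6R and the shared subunit gp130 (IL6ST) to the kinases JAK1 and JAK2 and the transcription factor STAT3. Its gene is one of many that the NF-kappaB transcription factors switch on after interleukin 1, tumour necrosis factor or microbial products, together with chemokines that attract neutrophils (CXCL1, IL8), the granulocyte growth factor CSF3 and the acute-phase proteins. NF-kappaB also switches on its own inhibitors, such as NFKBIA and TNFAIP3, which limit the response. Tumour cells as well as stromal cells can make these products, and in bulk tumour RNA fewer cells of a type and less RNA per cell cannot be told apart.

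Of 23284 gene symbols, 12586 had a mean of at least 1 FPKM and were compared. A gene under 1 FPKM in every tumour of one class can pass through the other class. EBI3, CCL3, IL36G, LCN2, MMP3, AQP9 and GPR84 are among those that passed in this way through the IL6-high class. Where the lists below count such a gene, its higher mean FPKM follows from the filter. Summed FPKM ran from 410786 to 475146 per tumour, and the relative depth read from low values was 1 to 1.46, with IL6-high tumours at 1 to 1.14 and IL6-low tumours at 1.17 to 1.46. Depth thus stood lower in all 3 IL6-high tumours, and its part in the results was not tested. Library kits and sequencing instruments, of which the labels name 2 each, are not tied to samples there, and their part was not tested either. Of 20 Schwann, neural crest and melanocyte genes, 8 passed 1 FPKM. The nerve sheath markers SOX10 and S100B stayed near 0 in every tumour, while the neural crest factor PAX3 had 8.88, 6.98 and 7.28 FPKM in the IL6-high tumours and 6.88, 6.39 and 6.16 FPKM in the IL6-low tumours. Below, each set of 3 values follows the order IgG control 1, IgG control 3, anti-ENG 3 for the IL6-high class and IgG control 2, anti-ENG 1, anti-ENG 2 for the IL6-low class.

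IL6 had 1269, 137 and 609 FPKM in the IL6-high tumours and 35.3, 20.2 and 20.7 FPKM in the IL6-low tumours. The lowest IL6-high tumour was 3.87 times the highest IL6-low tumour, but the IL6-high tumours spread over 9.29-fold among themselves, against 1.75-fold among the IL6-low tumours. CSF3, which drives granulocyte production, had 587, 119 and 320.0 FPKM in the IL6-high tumours and 28.5, 5.44 and 12.2 FPKM in the IL6-low tumours. CXCL1, a neutrophil-attracting chemokine, had 1288, 495 and 1304 FPKM in the IL6-high tumours and 59.0, 36.3 and 59.5 FPKM in the IL6-low tumours. In both genes the classes lay apart, with IgG control 3 the lowest of the IL6-high tumours.

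IL8, now named CXCL8 and also a neutrophil attractant, had 3088, 630.2 and 2286 FPKM in the IL6-high tumours and 145, 129 and 156 FPKM in the IL6-low tumours. IL1B, the precursor gene of the inflammatory cytokine interleukin 1 beta, had 542, 85.8 and 176 FPKM in the IL6-high tumours and 29.3, 13.4 and 8.81 FPKM in the IL6-low tumours. CCL20, which attracts cells that carry CCR6, had 102, 28.8 and 63.5 FPKM in the IL6-high tumours and 5.99, 3.66 and 5.27 FPKM in the IL6-low tumours. All 3 genes repeated the order of IL6 at the top, with IgG control 1 highest and IgG control 3 lowest among the IL6-high tumours. For CXCL1 the highest tumour was anti-ENG 3. Mean differences between the classes on the log2(FPKM + 1) scale were 4.21 for IL6, 4.38 for CSF3, 4.20 for CXCL1, 3.52 for IL8, 3.65 for IL1B and 3.31 for CCL20.

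**Figure D1:**
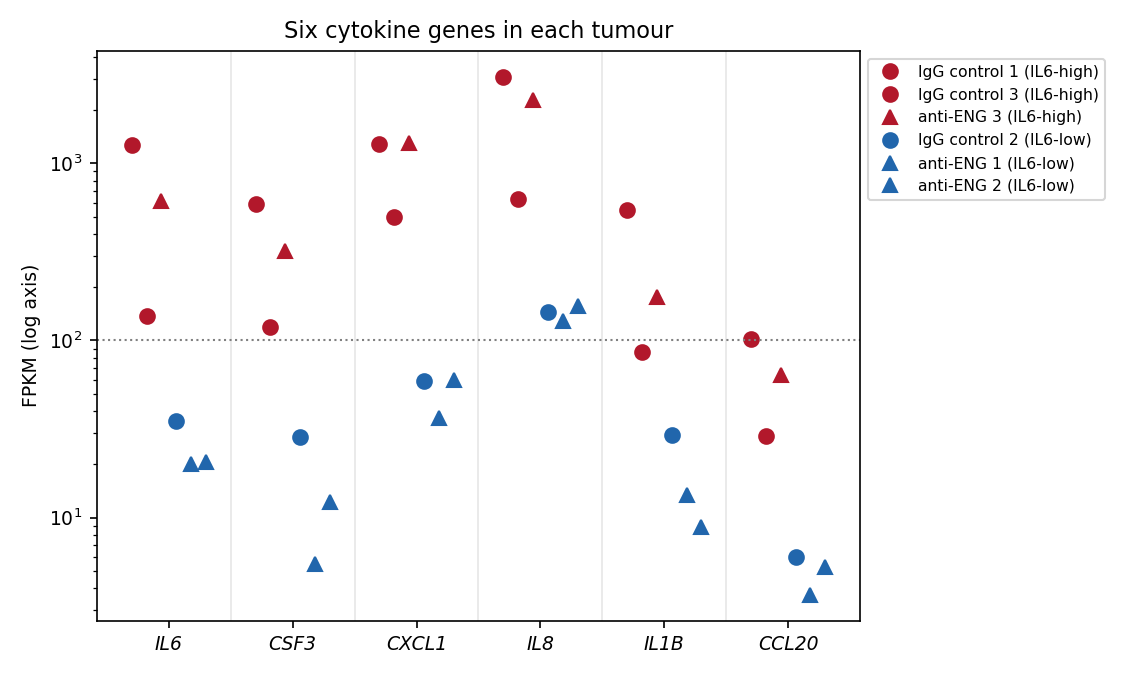
FPKM (log axis) of 6 cytokine genes in each of the 6 tumours, 1 symbol per tumour, red for IL6-high and blue for IL6-low, circles for IgG control and triangles for anti-ENG, with the limit of 100 FPKM for IL6 as a dotted line. For each gene all 3 red symbols lie above all 3 blue symbols, and IgG control 3 is the lowest red symbol for every gene shown.

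Across all genes, 999 had every IL6-high tumour above every IL6-low tumour (7.94% of those compared) and 885 had the reverse (7.03%). With a mean difference of at least 2-fold on log2(FPKM + 1) as well, the counts were 142 genes higher (1.13%) and 10 lower (0.0795%). The median difference over all genes was -0.016. The larger differences were thus mostly on the high side: the lowest IL6-high tumour reached at least 2 times the highest IL6-low tumour in 40 genes, and the reverse held for 1 gene. At 4 times these counts were 8 and 0. With treatment arm as a term in the model, 126 of the 142 and 7 of the 10 kept a difference of at least 2-fold. Leaving out 1 tumour left fewer to separate and gave 1410 to 1800 apart genes higher and 1386 to 1940 lower, and the 142 became 219 without IgG control 2. The 10 lower genes became 14 without anti-ENG 3 and 17 to 29 without any other tumour, the most without IgG control 3. Of the 152 genes in the 2 directions with all tumours in, 52 were on 1 of the 32 gene lists described below and 100 were on none. Each list's count of apart genes is to be read beside the 7.94% higher and 7.03% lower of all genes.

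The IL6-high tumours were graded rather than alike. Of the 142 higher genes, 99 were highest in IgG control 1, 33 in anti-ENG 3 and 10 in IgG control 3, and in 114 IgG control 3 was the lowest of its class. At the other end, 94 of the 142 were lowest in anti-ENG 1. IgG control 1 and anti-ENG 1 were also the ends of the first principal component, at 31.9 and -39.8, with 44.6% of the variance. With both of these tumours left out, 4 tumours remained and 2454 genes were apart in the higher direction. On the second component, with 21.6% of the variance, the classes overlapped.

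Among the genes of the IL6 cytokine family, 5 of the 6 that passed 1 FPKM were apart and higher in the IL6-high tumours, and 0 were lower. The median difference was 1.72 (all genes -0.016), and 0.45 with no filter. EBI3 is 1 of the 5 and passed only through the IL6-high class. IL11, a gp130 cytokine of stromal and epithelial cells, had 149, 20.7 and 87.6 FPKM in the IL6-high tumours and 10.0, 13.4 and 6.79 FPKM in the IL6-low tumours. LIF, which binds LIFR with gp130, had 119, 37.8 and 53.9 FPKM in the IL6-high tumours and 20.7, 14.97 and 24.2 FPKM in the IL6-low tumours. EBI3, a subunit shared by interleukins of the IL6 and IL12 group, had 6.45, 3.60 and 3.83 FPKM in the IL6-high tumours and 0.795, 0.57 and 0.339 FPKM in the IL6-low tumours. CLCF1 lay apart by a narrow margin (14.6, 11.7 and 15.02 against 9.76, 8.11 and 11.6 FPKM), and CNTF overlapped. OSM, CTF1 and IL27 did not pass 1 FPKM.

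Receptors and kinases of this pathway differed less, with 5 of 11 apart and higher, 0 lower and a median of 0.10. That median was 0.054 with arm in the model, and without 1 tumour it ran from 0.044 (anti-ENG 1) to 0.26 (IgG control 2). OSMR, the oncostatin M receptor that pairs with gp130, had 76.3, 50.2 and 58.5 FPKM in the IL6-high tumours and 31.2, 26.5 and 24.5 FPKM in the IL6-low tumours. IL6ST, the gp130 gene itself, had 41.5, 40.5 and 36.5 FPKM in the IL6-high tumours and 27.6, 27.7 and 36.0 FPKM in the IL6-low tumours, with the classes apart by 1.01 times only. JAK2 had 24.1, 17.2 and 20.6 FPKM in the IL6-high tumours and 13.6, 13.9 and 12.2 FPKM in the IL6-low tumours, apart with IgG control 1 highest. STAT3 had 47.5, 31.1 and 30.2 FPKM in the IL6-high tumours and 28.6, 16.8 and 26.7 FPKM in the IL6-low tumours. The STAT3 difference of 0.58 was 0.14 without IgG control 1 and anti-ENG 1. IL6R, the receptor that binds IL6 itself, was near or below 1 FPKM (0.677, 1.11 and 1.20 against 0.523, 0.617 and 0.44 FPKM) and was not among the genes compared. JAK1 overlapped at 32.0, 31.0 and 30.8 against 28.9, 30.4 and 31.7 FPKM.

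STAT3 targets and feedback genes were apart and higher in 9 of 13 cases and lower in 0, with a median of 0.76. SOCS3, which blocks gp130 signalling, had 22.4, 15.8 and 18.0 FPKM in the IL6-high tumours and 11.2, 9.16 and 11.4 FPKM in the IL6-low tumours. CEBPD, a transcription factor of the acute-phase response, had 78.5, 24.9 and 45.6 FPKM in the IL6-high tumours and 19.6, 7.51 and 8.93 FPKM in the IL6-low tumours, and its relative CEBPB had 253, 111 and 162 FPKM in the IL6-high tumours and 95.7, 58.1 and 85.1 FPKM in the IL6-low tumours. BCL6, a transcriptional repressor, had 15.97, 9.49 and 9.64 FPKM in the IL6-high tumours and 6.61, 3.93 and 3.49 FPKM in the IL6-low tumours. SOCS2 overlapped and stood lower on average (2.03, 3.61 and 1.27 against 3.41, 6.42 and 4.58 FPKM, difference -0.84). This list shares IER3 with the NF-kappaB list and JUNB with the AP-1 list, so the counts are not independent.

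Of 5 colony stimulating factor and receptor genes that passed 1 FPKM, CSF1, CSF2 and CSF3 were apart and higher and 0 were lower. The median was 1.24, and 0.19 with no filter. CSF2, which supports granulocytes and macrophages, had 139, 46.8 and 162 FPKM in the IL6-high tumours and 11.1, 20.9 and 26.7 FPKM in the IL6-low tumours. CSF1, the macrophage growth factor, had 93.6, 45.0 and 59.6 FPKM in the IL6-high tumours and 29.4, 17.8 and 34.2 FPKM in the IL6-low tumours. Its receptor gene CSF1R stayed at 2.16, 1.59 and 2.13 against 1.79, 1.12 and 1.93 FPKM, and the CSF3 receptor gene CSF3R was listed at 0 in all 6 tumours. KITLG, the ligand of KIT, overlapped with a difference of -0.42.

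The CXC chemokines showed 6 of 9 apart and higher, 0 lower and a median of 1.98 (0.71 with no filter). Those that act on neutrophils were all apart. CXCL2 had 80.5, 17.1 and 48.5 FPKM in the IL6-high tumours and 7.601, 7.88 and 10.6 FPKM in the IL6-low tumours. CXCL3 had 45.6, 10.2 and 36.5 FPKM in the IL6-high tumours and 2.96, 2.60 and 4.34 FPKM in the IL6-low tumours. CXCL5 had 102, 59.7 and 99.9 FPKM in the IL6-high tumours and 19.0, 22.9 and 20.5 FPKM in the IL6-low tumours, so its values within each class were closer together than those of IL6. CXCL1, CXCL2 and CXCL3 are close copies of each other, and no source used here says how reads common to them were assigned. In contrast the interferon-induced CXCL10 and CXCL11 overlapped between the classes. CXCL10 had 203, 136 and 175 FPKM in the IL6-high tumours and 107, 64.2 and 207 FPKM in the IL6-low tumours, with the highest value in an IL6-low tumour.

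Of the CC and CX3C chemokines, 5 of 9 were apart and higher and 0 lower, with a median of 1.05 (0.95 with no filter). CCL2, which attracts monocytes and was the most abundant of this list per length, had 1199.8, 658 and 977 FPKM in the IL6-high tumours and 446, 392 and 669 FPKM in the IL6-low tumours, a narrow overlap. CCL3 had 2.38, 2.17 and 3.91 FPKM in the IL6-high tumours and 0.757, 0.305 and 0.363 FPKM in the IL6-low tumours, and CCL8 had 2.74, 4.91 and 10.4 FPKM in the IL6-high tumours and 1.37, 0.843 and 1.62 FPKM in the IL6-low tumours. CCL5 was apart by 1.05 times only, because anti-ENG 2 reached 28.1 FPKM beside 33.0, 29.5 and 33.4 FPKM in the IL6-high class. CCL11, an eosinophil attractant, overlapped and had its highest values in IgG control 3 (8.74 FPKM) and anti-ENG 3 (17.0 FPKM).

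Genes of the interleukin 1 family were apart and higher in 6 of 12 cases and lower in 0, with a median of 0.44 (0.22 with no filter). The ligands differed most. IL1A had 26.6, 4.05 and 9.88 FPKM in the IL6-high tumours and 1.99, 1.11 and 1.35 FPKM in the IL6-low tumours, and IL36G, an epithelial member of the family, had 3.61, 1.46 and 3.69 FPKM in the IL6-high tumours and 0.0852, 0.137 and 0.163 FPKM in the IL6-low tumours. The receptor IL1R1 had 44.6, 29.9 and 25.6 FPKM in the IL6-high tumours and 21.6, 16.9 and 13.1 FPKM in the IL6-low tumours, and IRAK3, an inhibitor of signalling below the receptor, had 7.12, 4.49 and 6.95 FPKM in the IL6-high tumours and 2.35, 0.937 and 2.02 FPKM in the IL6-low tumours. The adaptor MYD88 (29.7, 28.4 and 29.1 against 30.2, 26.2 and 36.2 FPKM) and the kinases IRAK1 and IRAK4 overlapped, as did CASP1, which cleaves the interleukin 1 beta precursor (11.1, 6.66 and 4.18 against 9.09, 4.88 and 14.7 FPKM). IL1RN, the receptor antagonist, did not pass 1 FPKM.

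NF-kappaB subunits and kinases were apart and higher in 5 of 9 cases and lower in 0, with a median of 0.27. NFKB2, the subunit of the noncanonical pathway, had 59.9, 26.1 and 41.1 FPKM in the IL6-high tumours and 20.9, 18.1 and 18.2 FPKM in the IL6-low tumours. NFKB1, its canonical counterpart, had 47.0, 28.2 and 37.7 FPKM in the IL6-high tumours and 21.3, 16.9 and 23.4 FPKM in the IL6-low tumours. RELB had 32.4, 20.0 and 27.2 FPKM in the IL6-high tumours and 17.0, 13.1 and 18.3 FPKM in the IL6-low tumours. In all 3 genes IgG control 1 was highest and IgG control 3 the lowest of its class. RELA, the most abundant of the list per length, had 209.7, 179 and 203 FPKM in the IL6-high tumours and 138, 113 and 159.8 FPKM in the IL6-low tumours. The kinase genes CHUK and IKBKB overlapped, and so did MAP3K14.

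Feedback inhibitors of NF-kappaB had 9 of 14 genes apart and higher, 0 lower and a median of 0.61. ZC3H12A, an RNase that degrades IL6 messenger RNA, had 67.2, 27.9 and 46.6 FPKM in the IL6-high tumours and 11.5, 8.35 and 11.1 FPKM in the IL6-low tumours, the largest difference of this list at 2.02. TNFAIP3, a ubiquitin-editing enzyme, had 128, 54.3 and 88.1 FPKM in the IL6-high tumours and 31.5, 34.4 and 25.6 FPKM in the IL6-low tumours. NFKBIA, which holds NF-kappaB in the cytoplasm, had 277, 122 and 207 FPKM in the IL6-high tumours and 84.5, 93.4 and 97.0 FPKM in the IL6-low tumours. The tumours were chosen by IL6 and these inhibitors are among the genes found apart, so being high in the same 3 tumours follows from the choice. NFKBIZ, a nuclear cofactor of NF-kappaB at the IL6 gene, had 44.9, 17.3 and 29.2 FPKM in the IL6-high tumours and 11.9, 11.5 and 10.7 FPKM in the IL6-low tumours. CYLD, TNIP2 and BIRC2 overlapped.

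Other NF-kappaB target genes were apart and higher in 19 of 27 cases and lower in 0, with a median of 1.30. All 27 had a positive mean difference. LCN2 is counted here and passed only through the IL6-high class (1.87, 4.85 and 6.94 against 0.733, 0.0986 and 0.234 FPKM). TNFAIP6, which binds hyaluronan, had 432, 65.7 and 190.2 FPKM in the IL6-high tumours and 32.1, 29.2 and 33.5 FPKM in the IL6-low tumours. SOD2, the mitochondrial superoxide dismutase, had 484, 224 and 400.1 FPKM in the IL6-high tumours and 110.4, 111 and 112 FPKM in the IL6-low tumours, so its 3 IL6-low values agreed closely. The acute-phase gene SAA1 had 83.05, 94.6 and 88.6 FPKM in the IL6-high tumours and 22.9, 4.76 and 13.4 FPKM in the IL6-low tumours, with 3 alike values in the IL6-high class, while in its close copy SAA2 the values were 13.3, 15.2 and 12.7 FPKM in the IL6-high tumours and 3.59, 1.33 and 2.98 FPKM in the IL6-low tumours. Reads shared between SAA1, SAA2 and SAA4 could move between them. CFB, a complement factor, had 162, 92.5 and 142 FPKM in the IL6-high tumours and 40.9, 22.3 and 44.4 FPKM in the IL6-low tumours. ICAM1, an adhesion molecule for leukocytes, had 199.8, 76.3 and 146 FPKM in the IL6-high tumours and 52.3, 31.3 and 62.7 FPKM in the IL6-low tumours. TNF itself had 13.2, 6.33 and 8.32 FPKM in the IL6-high tumours and 3.37, 2.14 and 6.18 FPKM in the IL6-low tumours. PLAU, VCAM1, STC1 and TNFRSF9 overlapped.

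**Figure D2:**
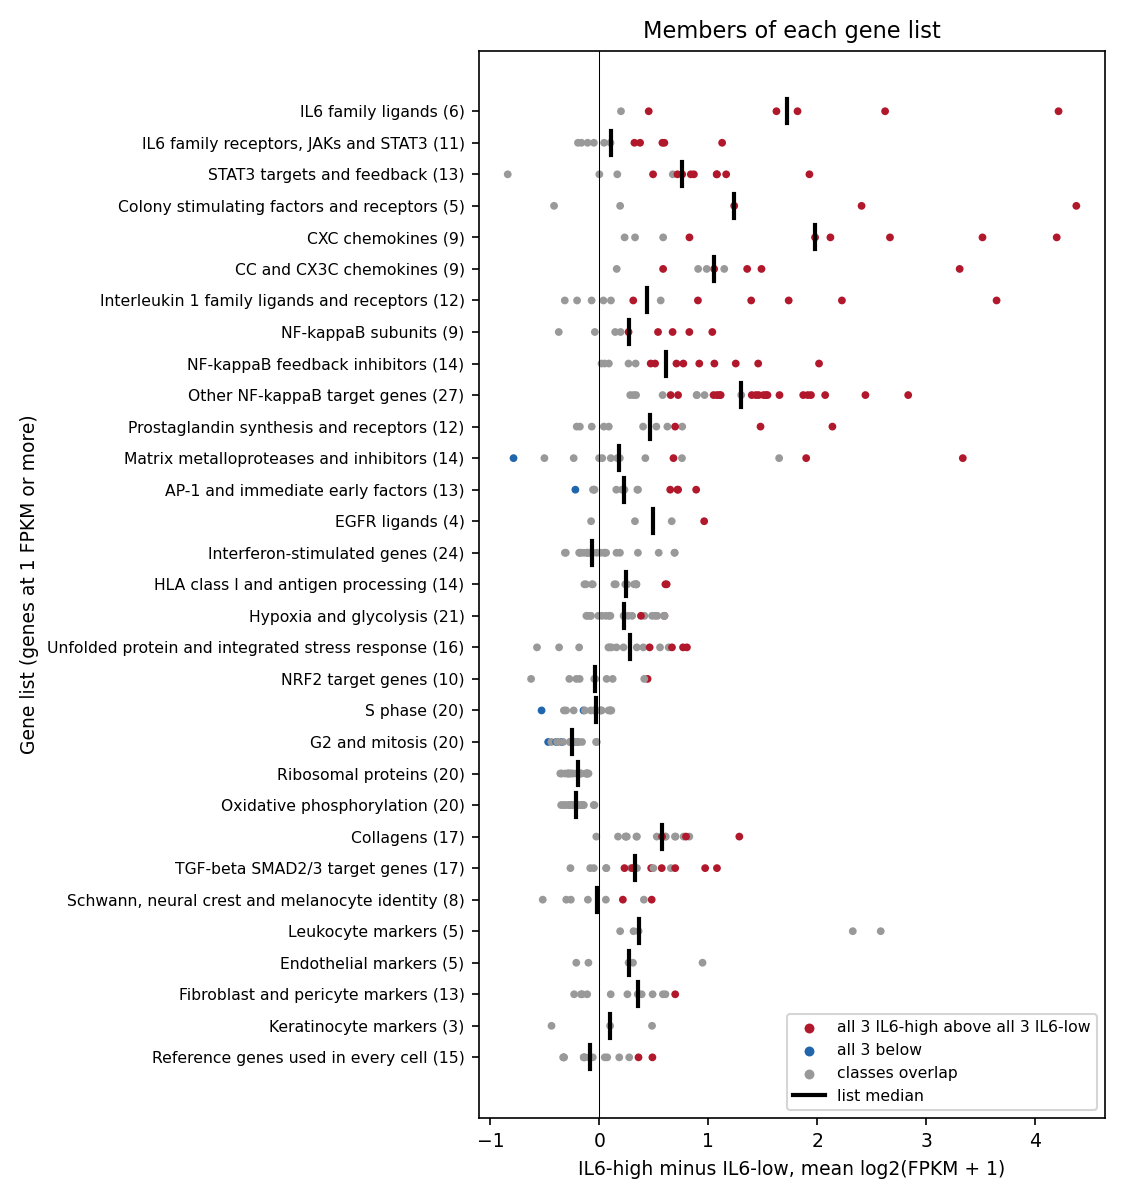
Mean difference between IL6-high and IL6-low tumours on log2(FPKM + 1) for each gene of each list, with the number of genes at 1 FPKM or more in brackets, red where all 3 IL6-high tumours were above all 3 IL6-low tumours, blue where all were below, grey where the classes overlapped, and a black bar at the list's median. The CXC chemokines (median 1.98) and IL6 family ligands (1.72) lie farthest to the right, and the ribosomal protein genes lie left of 0 with 0 of 20 apart.

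In the prostaglandin list 3 of 12 genes were apart and higher (7.94% of all genes) and 0 lower. PTGS2 (cyclooxygenase 2) had 24.9, 6.91 and 7.11 FPKM in the IL6-high tumours and 6.24, 0.703 and 0.579 FPKM in the IL6-low tumours, so the classes nearly met between IgG control 2 and IgG control 3. PTGES, which makes prostaglandin E2 from its product, had 88.6, 29.4 and 48.8 FPKM in the IL6-high tumours and 19.8, 14.1 and 19.0 FPKM in the IL6-low tumours, and PTGER4, a receptor for it, had 3.22, 4.42 and 5.28 FPKM in the IL6-high tumours and 2.38, 1.92 and 2.42 FPKM in the IL6-low tumours. PTGS1 overlapped.

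Among matrix metalloproteases and their inhibitors, 3 of 14 were apart and higher, where 7.94% of all genes were, and 1 was lower, which is near the 7.03% of all genes. MMP3 (stromelysin 1) had 20.9, 2.65 and 36.4 FPKM in the IL6-high tumours and 0.275, 0.355 and 0.685 FPKM in the IL6-low tumours, and the collagenase MMP13 had 502, 228 and 295 FPKM in the IL6-high tumours and 79.8, 89.7 and 88.8 FPKM in the IL6-low tumours. MMP2 was apart by 1.01 times. The collagenase MMP1 had 339.6, 82.8 and 217 FPKM in the IL6-high tumours and 90.2, 56.3 and 37.6 FPKM in the IL6-low tumours, with IgG control 2 above IgG control 3. MMP16, a membrane-bound protease, was the lower gene (3.30, 2.64 and 1.11 against 4.81, 4.92 and 3.95 FPKM). The inhibitors TIMP1, TIMP2, TIMP3 and TIMP4 all overlapped.

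AP-1 and immediate early factors had 4 of 13 genes apart and higher (7.94% of all genes) and 1 lower, KLF6, which is near the 7.03% of all genes. FOSL2 had 34.0, 20.0 and 25.1 against 14.8, 17.7 and 13.4 FPKM, MAFF 32.5, 17.9 and 22.9 against 11.4, 16.2 and 10.2 FPKM and JUNB 88.1, 47.7 and 57.4 against 46.2, 26.9 and 42.4 FPKM. The canonical members FOS and JUN overlapped. Of 4 EGFR ligand and receptor genes that passed, EREG (epiregulin) was apart and higher (52.9, 24.5 and 26.9 against 23.3, 8.56 and 21.3 FPKM) and HBEGF, NRG1 and EGFR overlapped.

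The genes with the widest gap between the classes were CXCL1, PI3, CCL20, CSF3, IL8 and IL6, in that order, where the gap is the lowest IL6-high minus the highest IL6-low value on log2(FPKM + 1). PI3 (elafin), a secreted inhibitor of neutrophil elastase, had 42.3, 17.3 and 55.6 FPKM in the IL6-high tumours and 2.90, 0.731 and 1.04 FPKM in the IL6-low tumours. TFPI2, a protease inhibitor of the extracellular matrix, had 52.0, 29.1 and 36.8 FPKM in the IL6-high tumours and 9.10, 8.66 and 4.94 FPKM in the IL6-low tumours. CHI3L1, a secreted chitinase-like protein, had 66.8, 36.1 and 78.4 FPKM in the IL6-high tumours and 13.0, 7.94 and 8.39 FPKM in the IL6-low tumours. LCP1, an actin-bundling protein of blood cells and many tumour cells, had 28.9, 36.3 and 41.2 FPKM in the IL6-high tumours and 9.04, 5.47 and 10.2 FPKM in the IL6-low tumours. LCP1 and SAA1 differed from IL6 in that IgG control 3 was not the lowest of the IL6-high tumours.

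**Figure D3:**
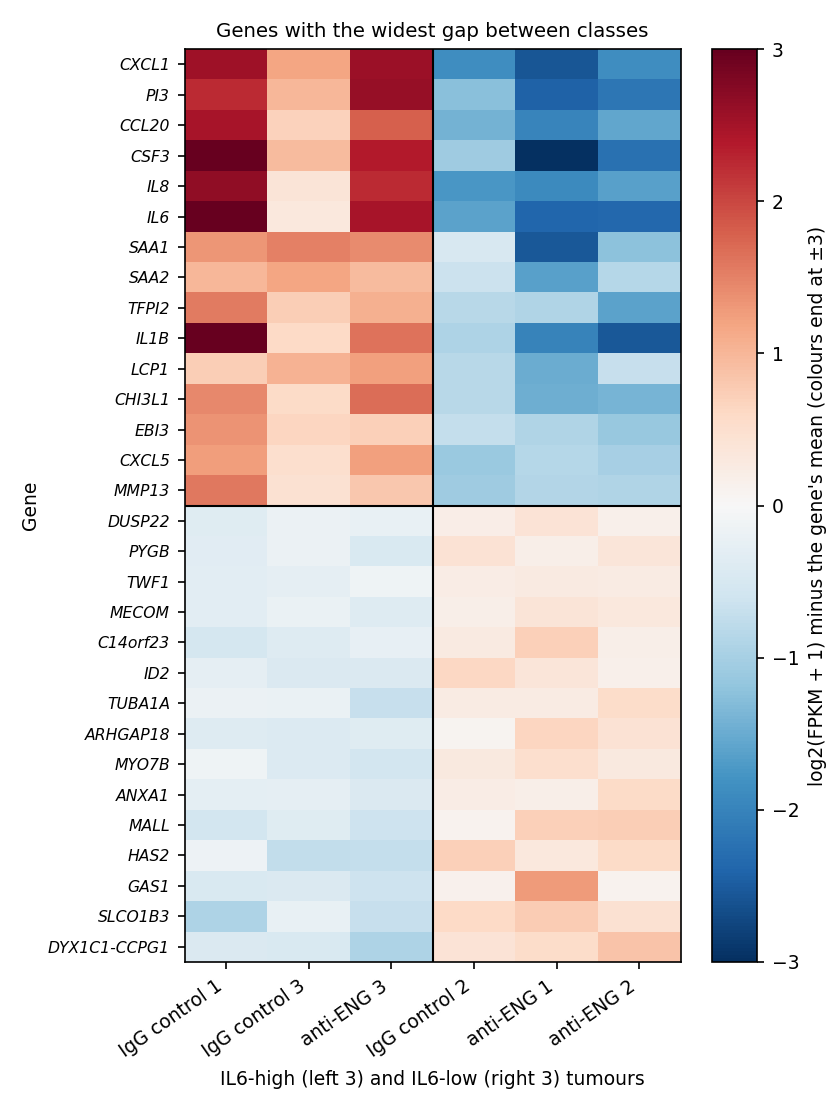
Colour shows log2(FPKM + 1) minus the gene's mean over the 6 tumours, for the 15 genes with the widest gap in the higher direction (top) and the 15 in the lower direction (bottom), with IL6-high tumours in the left 3 columns and IL6-low in the right 3. The upper block reaches far deeper colours than the lower block, and within it IgG control 3 is paler than IgG control 1 and anti-ENG 3 for CXCL1, PI3, CCL20, CSF3, IL8, IL6 and IL1B, but not for SAA1, SAA2 or LCP1.

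The 10 genes whose log2(FPKM + 1) followed IL6 most closely over the 6 tumours had Pearson r from 0.990 to 0.995, as a description over 6 points that include the split itself. SLC39A8, a zinc and manganese importer, had 33.1, 19.0 and 30.6 FPKM in the IL6-high tumours and 11.8, 9.65 and 10.1 FPKM in the IL6-low tumours, and ERN1, a sensor of the unfolded protein response, had 5.64, 3.28 and 5.05 FPKM in the IL6-high tumours and 2.08, 1.48 and 1.66 FPKM in the IL6-low tumours. RNF144B, a ubiquitin ligase, had 7.68, 3.49 and 5.50 FPKM in the IL6-high tumours and 2.51, 1.82 and 1.91 FPKM in the IL6-low tumours. AQP9, a channel for water and glycerol, had 4.78, 1.11 and 3.02 FPKM in the IL6-high tumours and 0.233, 0.241 and 0.0957 FPKM in the IL6-low tumours. ELMO2 and PCSK7 followed IL6 with small differences of 0.21 and 0.26. The remaining genes were SOD2, ZC3H12A, IL8 and CCL20.

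Genes lower in the IL6-high tumours differed by smaller amounts. The widest gap was at DYX1C1-CCPG1, a read-through locus whose reads overlap its neighbours' (2.13, 2.10 and 1.25 FPKM in the IL6-high tumours and 4.62, 5.27 and 6.68 FPKM in the IL6-low tumours). SLCO1B3, an organic anion transporter, had 1.02, 2.29 and 1.38 FPKM in the IL6-high tumours and 4.84, 5.57 and 4.32 FPKM in the IL6-low tumours. HAS2, which makes hyaluronan, had 7.26, 4.48 and 4.65 FPKM in the IL6-high tumours and 14.1, 10.4 and 12.8 FPKM in the IL6-low tumours, in the direction opposite to the hyaluronan-binding TNFAIP6. GAS1, a hedgehog co-receptor, had 1.13, 1.14 and 0.88 FPKM in the IL6-high tumours and 2.17, 6.05 and 2.11 FPKM in the IL6-low tumours, with anti-ENG 1 the highest. MALL, a membrane raft protein, had 18.8, 21.7 and 17.8 FPKM in the IL6-high tumours and 30.0, 46.5 and 47.4 FPKM in the IL6-low tumours.

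More abundant genes also lay apart in this direction. ANXA1, a phospholipid-binding protein that limits inflammation, had 231, 234 and 209.8 FPKM in the IL6-high tumours and 329, 319.9 and 424 FPKM in the IL6-low tumours, a difference of -0.66. PYGB, a glycogen phosphorylase, had 76.3, 84.5 and 69.8 against 131, 108 and 124 FPKM, TUBA1A, a tubulin, 43.8, 43.3 and 30.1 against 59.3, 58.8 and 73.2 FPKM, and TWF1, an actin-binding protein, 61.8, 64.5 and 70.6 against 90.6, 93.6 and 91.9 FPKM. ID2, an inhibitor of basic helix-loop-helix factors, had 1.82, 1.501 and 1.52 against 4.20, 3.33 and 2.75 FPKM, and MECOM, a zinc finger factor, 6.75, 7.37 and 6.36 against 9.92, 11.6 and 11.0 FPKM. MYO7B, ARHGAP18, C14orf23 and DUSP22 complete the 15, with differences of -0.74, -0.77, -0.77 and -0.51.

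Interferon-stimulated genes did not separate the classes: 0 of 24 were apart in either direction, with a median of -0.067 whose sign was not stable: without 1 tumour it ran from -0.16 (anti-ENG 1) to 0.18 (anti-ENG 2), and it was also positive without IgG control 3 or anti-ENG 3. ISG15, a ubiquitin-like modifier, had 612, 502 and 541 FPKM in the IL6-high tumours and 453, 636 and 838 FPKM in the IL6-low tumours, and MX1, an antiviral GTPase, had 356, 306 and 269 FPKM in the IL6-high tumours and 235, 220.3 and 406 FPKM in the IL6-low tumours. Both were highest in anti-ENG 2, an IL6-low tumour. HLA class I and antigen processing genes had 2 of 14 apart and higher (7.94% of all genes), HLA-F (226, 181 and 183 against 145, 92.3 and 157 FPKM) and TAPBP (119.5, 86.3 and 85.4 against 71.2, 45.0 and 74.8 FPKM). HLA genes resemble each other, so reads between them are uncertain.

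The counts of 2 stress lists were near the 7.94% of all genes that were apart and higher. They were 2 of 21 hypoxia and glycolysis genes, VEGFA (184, 189 and 145 against 144, 97.1 and 104 FPKM) and PFKFB4, and 1 of 10 NRF2 targets, HMOX1 (4.17, 3.73 and 4.76 against 2.91, 2.85 and 2.73 FPKM). In the unfolded protein and integrated stress response 4 of 16 were apart and higher. XBP1, the transcription factor that ERN1 activates by splicing, had 108, 73.0 and 91.4 FPKM in the IL6-high tumours and 54.6, 47.4 and 55.4 FPKM in the IL6-low tumours, DNAJB9 28.7, 16.2 and 20.7 against 14.6, 10.5 and 10.6 FPKM and PDIA4 328, 199 and 261 against 168, 129.6 and 194 FPKM, with HERPUD1 apart by 1.01 times. ATF4, DDIT3 and ASNS of the integrated stress response overlapped.

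Cell division and biosynthesis genes leaned the other way by small amounts. The leaning was not particular to them: the reference genes RPLP0, PPIA and GAPDH had differences of -0.33, -0.33 and -0.32. A general shift of abundant genes was not tested. All 20 G2 and mitosis genes had a negative difference, with 4 apart and lower (7.03% of all genes) and a median of -0.25. CCNB2 (cyclin B2) had 22.2, 23.2 and 26.8 against 28.3, 36.3 and 36.9 FPKM, BUB1B 14.1, 15.6 and 15.5 against 17.7, 22.8 and 18.1 FPKM, NDC80 18.2, 16.9 and 18.6 against 21, 28.0 and 23.2 FPKM and PLK1 25.7, 25.2 and 25.9 against 28.9, 30.9 and 30.9 FPKM. All 20 ribosomal protein genes (median -0.20, 0 apart) and all 20 oxidative phosphorylation genes (median -0.21, 1 apart, near the 7.03% of all genes) were negative too. With arm in the model the median was -0.075 for ribosomal protein genes and -0.15 for G2 and mitosis genes. S phase genes had 2 of 20 apart and lower, near the 7.03% of all genes, and their median of -0.033 turned to 0.044 with arm in the model, to 0.012 without IgG control 1 and to 0.00577 without anti-ENG 2. Without IgG control 1 and anti-ENG 1 the ribosomal median was 0.12 and the G2 and mitosis median was -0.039, so the leaning shrank for one list and turned for the other. The oxidative phosphorylation median was -0.11 with arm in the model, -0.14 without IgG control 1, -0.087 without anti-ENG 1 and -0.0348 without both. It was -0.34 without IgG control 2.

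Collagens had a median of 0.58 with 3 of 17 apart and higher (7.94% of all genes). Without IgG control 1 and anti-ENG 1 the median was -0.025. COL8A1, a short-chain collagen, had 81.7, 54.0 and 118 FPKM in the IL6-high tumours and 29.5, 32.2 and 35.9 FPKM in the IL6-low tumours, and COL7A1, of anchoring fibrils, had 124, 108 and 132 FPKM in the IL6-high tumours and 89.1, 53.5 and 69.9 FPKM in the IL6-low tumours. The main fibrillar gene COL1A1 overlapped at 749, 404 and 444 against 486, 160.4 and 401 FPKM. TGF-beta target genes had 7 of 17 apart and higher (7.94% of all genes), with a median of 0.33. TNC (tenascin C) had 245, 217 and 301 FPKM in the IL6-high tumours and 134, 94.2 and 166 FPKM in the IL6-low tumours, and CYR61, a matricellular protein, had 20.4, 19.6 and 46.7 FPKM in the IL6-high tumours and 11.7, 16.1 and 9.24 FPKM in the IL6-low tumours.

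Markers of other cell types are given beside these results. Of 16 leukocyte markers 5 passed 1 FPKM and 0 were apart (all genes 7.94% higher and 7.03% lower). All 5 had a positive difference, with a median of 0.36, or 0.45 with arm in the model. Without 1 tumour the median ran from 0.22 to 0.61. The summed FPKM of the 16 markers was 132 to 274 in IL6-high tumours and 77.1 to 124 in IL6-low tumours. Among the markers that did not pass, CD3E, NKG7 and CSF3R were at 0 in all 6 tumours, and PTPRC was at 0.342, 0.765 and 0.689 against 0.56, 0.184 and 1.13 FPKM. The neutrophil and epithelial gene S100A8 had 4.30, 85.5 and 46.8 FPKM in the IL6-high tumours and 25.0, 1.08 and 2.21 FPKM in the IL6-low tumours and its partner S100A9 5.54, 121 and 63.1 FPKM in the IL6-high tumours and 35.5, 0.562 and 3.17 FPKM in the IL6-low tumours, in an order unlike that of IL6. These 2 genes carried the order of the sums: the other 14 markers summed to 122, 67.9 and 102 FPKM in the IL6-high tumours and 63.9, 75.4 and 82.99 FPKM in the IL6-low tumours, with IgG control 3 below anti-ENG 1 and anti-ENG 2. This split of the list was chosen after seeing the data. The part of leukocytes in the cytokine differences was not tested.

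Of 13 endothelial markers 5 passed and 0 were apart, with CDH5, VWF and KDR under 1 FPKM throughout. Over all genes 7.94% were apart and higher and 7.03% apart and lower, so 0 apart among so few members says little. Fibroblast and pericyte markers had 1 of 13 apart and higher, near the 7.94% of all genes. It was ACTA2 (17.4, 10.5 and 13.2 against 8.12, 6.92 and 8.77 FPKM). The list median of 0.35 was 0.058 with arm in the model and -0.039 without anti-ENG 1. Of 11 keratinocyte markers 3 passed and 0 were apart, and of 13 erythroid, fat and muscle markers 0 passed. These are human gene symbols, so RNA of the mouse host enters only where its reads aligned to the human genome. Of 15 reference genes, TFRC and POLR2A were apart and higher, by 1.01 and 1.03 times, with a list median of -0.083, or 0.041 with arm in the model. Of the 15, 9 had a negative and 6 a positive difference, with RPLP0, PPIA and GAPDH the most negative.

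Each arm holds its own comparison of IL6 classes, and the 2 share no tumour. In the IgG arm 50 genes were at least 2-fold higher in both IL6-high tumours than in the IL6-low tumour (0.397% of those compared). In the anti-ENG arm 166 genes were at least 2-fold higher in the IL6-high tumour than in both IL6-low tumours (1.32%). They had 44 genes in common, which is 88.0% of the IgG genes and 26.5% of the anti-ENG genes. The IgG count was 320 without IgG control 3, with 105 in common, and 92 without IgG control 1. Because IL6 chose the tumours in both arms, this overlap is a description of what goes with IL6.

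The 44 genes included IL6, CSF2, CSF3, CXCL1, CXCL2, CXCL3, CXCL5, IL8, CCL20, IL1B, IL24, IL36G, LTB, MMP3, MMP13, PI3, SAA1, SAA2, SOD2, TNFAIP6, PTX3, CFB and ZC3H12A. CSF3 had a within-arm difference of 3.17 in the IgG arm and 5.12 in the anti-ENG arm, and CXCL1 had 3.74 and 4.78. The 6 IgG genes outside the overlap were CCL5, CXCR7, ISM1, MIR1248, MIR3911 and TNFRSF9. In the lower direction 14 genes in the IgG arm (0.111% of those compared) and 28 in the anti-ENG arm (0.222%) reached 2-fold, and 0 did in both. With so few genes in each arm, 0 in common says little. The IgG count of lower genes was 79 without IgG control 1 and 85 without IgG control 3. Across all 12586 genes, which are not independent, the within-arm differences had a Pearson r of 0.49.

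The fibroblast genes DCN (decorin) and LUM (lumican) went opposite ways in the arms. DCN had 12.9 and 22.3 FPKM in the IL6-high and 48.5 FPKM in the IL6-low IgG tumour, against 14.9 FPKM in the IL6-high and 4.62 and 7.87 FPKM in the IL6-low anti-ENG tumours. LUM had 7.49 and 7.03 FPKM against 33.5 FPKM in the IgG arm, and 8.43 FPKM against 3.03 and 2.73 FPKM in the anti-ENG arm. IgG control 2, the only IL6-low tumour of its arm, held the highest value of both genes. Whether the arms differ in this respect was not tested.

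**Figure D4:**
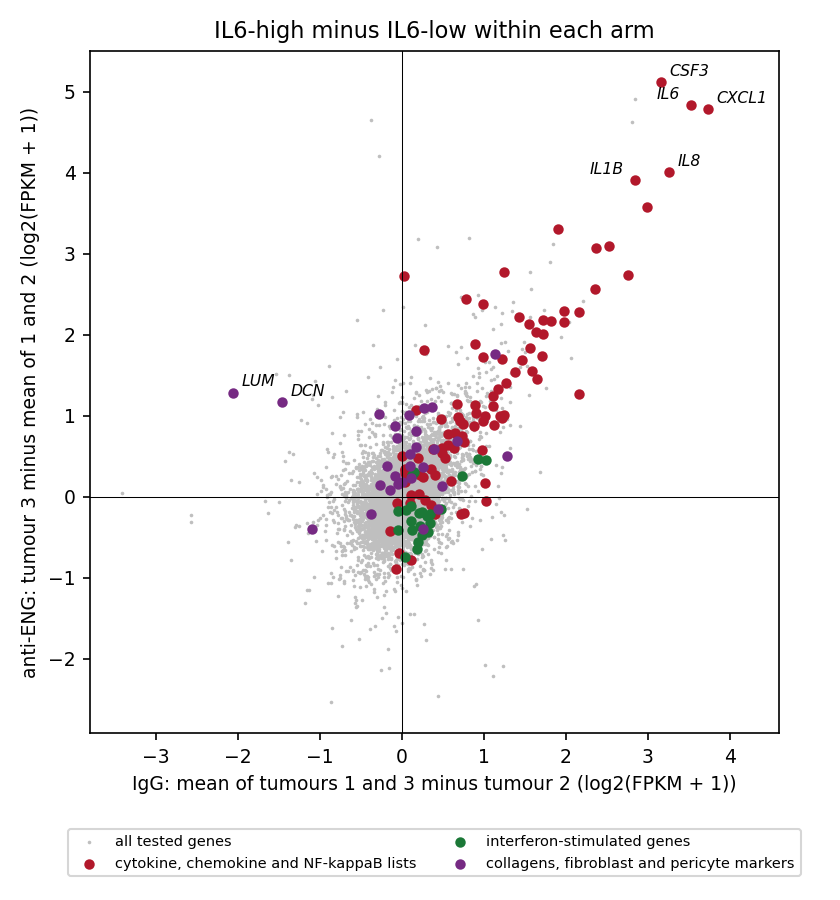
Each point is a gene, with the IL6-high minus IL6-low difference on log2(FPKM + 1) in the IgG arm on the x axis and in the anti-ENG arm on the y axis, for all genes (grey), cytokine, chemokine and NF-kappaB lists (red), interferon-stimulated genes (green) and collagens with fibroblast and pericyte markers (purple). CSF3, IL6 and CXCL1 lie at the upper right. LUM and DCN, picked by hand from the purple genes, lie at the upper left, lower in the IgG arm and higher in the anti-ENG arm.

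The labelled comparison of anti-ENG with IgG was not used in choosing the classes and could be tested. IL6-high tumours were 2 of 3 in the IgG arm and 1 of 3 in the anti-ENG arm, too few for a test to reach 0.05. Mean IL6 was 480 ± 685 FPKM (SD, n = 3) in the IgG arm and 217 ± 340 FPKM (SD, n = 3) in the anti-ENG arm. An exact permutation test of IL6 on log2(FPKM + 1) between the arms (two-sided) gave p = 0.5, and 3 tumours against 3 cannot give less than 0.1. By limma the log2 fold change of IL6, anti-ENG over IgG, was -1.5 (SE 1.62, adjusted p = 0.738). Leaving out 1 tumour at a time moved it between -3.11, without anti-ENG 3, and -0.11, without IgG control 1.

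Over all genes limma called 0 at an adjusted p under 0.05 (0%), with 1154 genes (9.17%) at an unadjusted p under 0.05 and a smallest adjusted p of 0.529. By the measure used for the IL6 classes, the 2 arms did not overlap in 2183 genes (17.3%). For the IL6 classes that share was 7.94% higher and 7.03% lower. Of the 142 genes higher in the IL6-high tumours, 133 had a lower and 9 a higher estimate in the anti-ENG arm, with a median of -0.59 against 0.0065 over all genes. The IgG arm holds 2 of the 3 IL6-high tumours, so a lower anti-ENG estimate for these genes follows from how they were chosen. Of the 142, 5 were under 0.05 unadjusted (3.52%), each with a limma adjusted p of 0.529, and 0 had the arms apart. Each arm holds tumours of both classes, so a gene that separates the classes varies within arms and cannot have the arms apart. These low shares thus follow from the choice of genes too, and nothing about treatment is read from them.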

How the data were processed

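Polyadenylated RNA of 6 tumours was sequenced, 3 per arm, and groups and replicate numbers come from the sample titles. The authors deposited 1 table of FPKM values per gene symbol. Cuffnorm with Cufflinks 2.2.1 is named in the submitters' processing notes, beside the aligner TopHat2 2.0.10 on Bowtie 1.0.0 and the human build GRCh37 (hg19). No source used here gives the library scaling, the use of strand or the handling of mouse reads.

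FPKM are not counts, so no count model was used, and total depth is unknown. Relative depth came from the smallest steps between low values, where genes at 0.05 FPKM or less show what 1 fragment is worth. Values were analysed as log2(FPKM + 1), which understates differences of low genes, in genes whose mean reached 1 FPKM. A gene is called apart where all 3 tumours of one IL6 class exceed all 3 of the other. Class differences carry no test. The members, the 32 lists and the rules were chosen with earlier results of these data known. Named genes are the 6 markers, the 15 widest gaps in each direction and the 10 highest r with IL6 (unnamed loci, small RNAs and pseudogenes passed over), and up to 5 members of each list by size of difference, with all members open for cytokine, chemokine and NF-kappaB lists. Genes named outside these rules to say that they overlapped or did not pass were picked from the lists after their values were seen.

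The arms were compared with limma 3.58.1 (R 4.3.3, variance trend, Benjamini-Hochberg over all 12586 genes) and, for IL6, with an exact permutation test (scipy 1.17.1). The limma fit was also run on simulated data with the same noise level in every gene, drawn independently. That run does not give the power of the fit in these tumours. Nothing says that the tumours come from separate animals, so p-values measure only the spread between these samples. Alternatives covered the pseudocount (0.1), the filter (5 FPKM or none), scaling, arm or class as a term, the fold (1.5) and leaving out tumours. The reference tables supplied are of the mouse, so no sequence or coordinate is given. Values of a few single genes are not reported here.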

Additional observations from a re-analysis of the deposited data

Results flagged for a closer look

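MAP3K14, the kinase that starts the noncanonical NF-kappaB pathway, went opposite ways in the arms. Its mean difference between IL6-high and IL6-low tumours was -0.373 on log2(FPKM + 1). In the IgG arm both IL6-high tumours (3.52 and 4.08 FPKM) lay above the IL6-low tumour (3.42 FPKM). In the anti-ENG arm the IL6-high tumour (2.81 FPKM) lay below both IL6-low tumours (4.79 and 6.43 FPKM). The IgG values 3.52 and 3.42 FPKM are close to each other. The difference between the arms was not tested.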

How the results depend on the processing

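Of 2247 values of 176 followed genes under the alternatives, 2197 stayed within 1 SD of the value given. That SD is the spread between tumours of a class, which is wide for genes such as IL6. Of the 103 genes apart between classes, 0 changed sign. Only rescaling could turn such a gene, as leaving out tumours or changing the pseudocount, filter or arm term keeps its sign. Counts of apart genes grew when tumours were left out, as fewer tumours have to be separated: 1410 to 1800 higher and 1386 to 1940 lower without 1 tumour, and 2454 and 2531 without IgG control 1 and anti-ENG 1. The 142 genes apart and 2-fold higher became 117 to 219 without 1 tumour, highest without IgG control 2, and 112 without IgG control 1 and anti-ENG 1. The 10 lower genes became 14 to 29, and they were 42 without IgG control 1 and anti-ENG 1, 27 with a pseudocount of 0.1 and 6 at a mean of at least 5 FPKM. With no filter, medians were 0.45 for IL6 family ligands, 0.19 for colony stimulating factors, 0.71 for CXC chemokines and 0.22 for the interleukin 1 family, where genes near 0 enter. At 5 FPKM they were 1.82 for colony stimulating factors, 0.21 for the interleukin 1 family and 0.54 for NF-kappaB subunits. Without IgG control 1 and anti-ENG 1 they were 0.69 for colony stimulating factors, 0.70 for CC and CX3C chemokines and 0.78 for other NF-kappaB targets. The CC and CX3C median ran from 0.75 to 1.24 without 1 tumour. Within arms, at 1.5-fold 175 genes were higher in the IgG arm and 106 in both, and 86 were lower in the IgG arm and 6 in both. A pseudocount of 0.1 gave 100 higher and 45 lower in the IgG arm, with 3 lower in both, and a mean of at least 5 FPKM gave 6 lower in the IgG arm. Leaving out 1 tumour, an alternative chosen after seeing the data for these counts, gave 50 to 320 higher and 13 to 85 lower genes in the IgG arm, 44 to 105 higher and 1 to 2 lower in both, with the high ends of the higher counts reached without IgG control 3. Where no construction of the alternative is named, the cause was not tested.

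The limma count between arms was 0 under every alternative run, with 661 to 1564 genes at an unadjusted p under 0.05. The replicate block also called 0 genes (842 unadjusted), and IL6 class as a covariate called 0 (798 unadjusted). Deviations of same-numbered tumours correlated at -0.33, 0.19 and 0.037, and those of differently numbered tumours at -0.49 to 0.35. These values cannot tell whether replicate numbers pair the tumours. With 3 tumours a class and unknown depth, differences of low genes such as EBI3, AQP9 and IL36G are the least precise, and they grew to 2.83, 3.23 and 3.63 with a pseudocount of 0.1.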

Other observations

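Single genes outside the lists are given here. They were picked by hand after their values were seen, stand for no group of genes, and are descriptions with no test, where 7.94% of all genes were apart and higher and 7.03% apart and lower. Values are in the order IgG control 1, IgG control 3, anti-ENG 3, then IgG control 2, anti-ENG 1, anti-ENG 2. The bradykinin receptor BDKRB1 had 26.8, 8.28 and 16.4 against 6.18, 3.80 and 7.03 FPKM and BDKRB2 31.3, 15.1 and 15.6 against 10.1, 5.58 and 10.4 FPKM. The complement receptor C3AR1 had 25.4, 6.62 and 13.5 against 3.91, 2.86 and 4.78 FPKM, the adenosine receptor ADORA2A 13.6, 3.61 and 7.35 against 1.14, 1.04 and 1.24 FPKM and the fatty acid receptor GPR84 11.2, 1.5 and 4.88 against 0.866, 0.107 and 0.447 FPKM. The irritant-gated channel TRPA1 had 21.9, 11.0 and 20.5 against 4.55, 2.45 and 2.88 FPKM, and the Toll-like receptor TLR2 had 44.7, 40.0 and 41.6 against 26.9, 21.8 and 27.5 FPKM. The lipopolysaccharide receptor TLR4 overlapped at 13.1, 9.72 and 10.9 against 11.1, 10.7 and 17.1 FPKM. INHBA, the activin A subunit, had 52.7, 34.7 and 54.6 against 16.1, 9.76 and 9.26 FPKM, and F3, the tissue factor that starts coagulation, had 77.8, 54.3 and 71.9 against 27.4, 34.6 and 31.7 FPKM.

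The ferritin heavy chain FTH1 had 1729.6, 1011 and 1419 against 624, 515 and 639 FPKM, while the ferritin light chain FTL overlapped at 657, 651 and 796 against 733, 731 and 584 FPKM. The metal importer SLC39A14 had 181, 84.8 and 144 against 45.8, 38.6 and 52.6 FPKM, and the metallothionein MT2A overlapped at 3468, 1243 and 1731 against 1048, 939 and 2204 FPKM. NAMPT, an enzyme of NAD synthesis, had 175, 65.7 and 107 against 51.7, 45.5 and 41.6 FPKM. NNMT, which uses up nicotinamide, had 82.8, 36.7 and 54.3 against 31.6, 22.8 and 17.3 FPKM.

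The transcription factors DBP (1.58, 2.03 and 2.46 against 3.30, 3.99 and 5.04 FPKM) and TEF (1.83, 3.04 and 2.62 against 3.70, 4.46 and 4.14 FPKM) and the period gene PER3 (2.498, 3.93 and 3.63 against 5.02, 6.23 and 7.72 FPKM) were lower in all 3 IL6-high tumours, while the clock genes ARNTL (7.12, 6.47 and 4.80 against 7.89, 6.12 and 5.98 FPKM), NR1D1 (6.62, 6.65 and 8.34 against 7.69, 4.74 and 6.54 FPKM) and PER2 (3.73, 3.11 and 2.44 against 3.90, 2.70 and 3.42 FPKM) overlapped. LAPTM5, a lysosomal protein of blood cells, had 49.4, 18.2 and 28.0 against 13.9, 4.27 and 15.01 FPKM. The part of leukocytes in this value was not tested.

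ENG, the target of the antibodies, overlapped between the IL6 classes at 41.0, 22.1 and 26.7 against 23.9, 15.5 and 29.5 FPKM.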
